A study of Sus scrofa with 22 samples.

Results

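AADAC (arylacetamide deacetylase) and the carboxylesterases were examined in the jejunal mucosa (the lining of the middle stretch of small bowel) of Ossabaw pigs. Of the 4 genes asked for (AADAC, CES1, CES2 and CES3), 2 could be followed among the 24358 genes of each library. CES3 was named in the files (ENSSSCG00000024476), and the row ENSSSCG00000031367 carries the symbol AADAC in a table of gene names. No row was found under CES1 or CES2, which were not analysed here. A pig CES1 gene is annotated on chromosome 6, so the missing name does not show that the gene is absent. The members were chosen by their levels in these same libraries, which had been seen to vary from pig to pig. The spread of AADAC and CES3 over the libraries is therefore given as a description and was not tested.

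The 22 libraries, each labelled as a separate pig, formed 3 groups. In WD_S, 7 pigs ate a Western dietary pattern (labelled atherogenic, with butter, cholesterol, sugar and white flour) and received atorvastatin. In HHD_S, 8 pigs ate a heart healthy pattern (plant oils, oats, whole wheat and more produce and fibre, with fish oil capsules of 1000 mg) and received atorvastatin, and in HHD, 7 pigs ate the heart healthy pattern alone. Both patterns supplied 38% of energy as fat and were fed for 6 months. The daily dose of atorvastatin, which blocks HMG-CoA reductase, was 20 mg until month 3 and 40 mg from then on. The series text describes WD_S without the drug in 1 place, and the sample labels were followed. The labels do not give the sex or age of single pigs. Pigs on the Western pattern that took no atorvastatin were not analysed here, and the diets could be compared at equal treatment only among pigs that took the drug.

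Both genes encode serine hydrolases of the endoplasmic reticulum. AADAC, known from human liver and small intestine, hydrolyses drugs such as phenacetin, flutamide and rifampicin and is related in sequence to hormone-sensitive lipase. Carboxylesterases split ester and amide bonds in drugs, prodrugs and lipids. In humans, CES1 predominates in liver and CES2 in small intestine, and the substrates of CES3 are less well known. In the human genome AADAC lies beside AADACL2 and SUCNR1.

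Total unique exon reads were 15.3 to 31.6 M per library. The deposited files carry a mark of lib3 (13 libraries) or lib4 (9 libraries), called library pools 3 and 4 here, since no label says what it stands for. Markers of enterocytes, the cells that define this tissue, summed to between 20698 and 50217 CPM (counts scaled to library size) in the 22 libraries. Of 6 hepatocyte markers listed, 5 had a row, and 0 of these passed the filter on low counts. Their sum was under 5 CPM in 20 of 22 libraries, the others being WD_S 4 (28.7 CPM) and HHD_S 1 (31.3 CPM). In bulk tissue, fewer cells of a type and less RNA per cell cannot be told apart.

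AADAC was present at a high level in some pigs and almost without reads in others. In 12 libraries it stood between 49.2 and 122 CPM (775 to 2138 reads), and in the other 10 between 0 and 1.52 CPM (0 to 32 reads). No library lay between 1.52 and 49.2 CPM, an interval of 32.4-fold. Within the 12 libraries the highest and the lowest differed by only 2.48-fold. All CPM are scaled by the trimmed mean of M values (TMM).

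Both kinds of library occurred in every diet group. In WD_S, 4 of 7 libraries had 49.2 to 122 CPM of AADAC and 3 had 0 to 1.36 CPM. In HHD_S, 5 of 8 had 70.6 to 92.6 CPM and 3 had 0.600 to 1.52 CPM. In HHD, 3 of 7 had 57.2 to 77.3 CPM and 4 had 0.148 to 1.52 CPM. The ranges of the 3 groups thus overlapped. Among the libraries of 49.2 CPM or more, the medians were 55.9 CPM in WD_S, 81.8 CPM in HHD_S and 61.5 CPM in HHD, a difference that was not tested. WD_S 4, WD_S 5 and WD_S 7 (60.4, 49.2 and 51.4 CPM) lay below each of the HHD_S libraries in that range. The highest value was that of WD_S 2 (2138 reads), and the lowest that of WD_S 1, where AADAC had 0 reads, which allows up to 0.121 CPM (3 reads, counting error only).

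**Figure D1:**
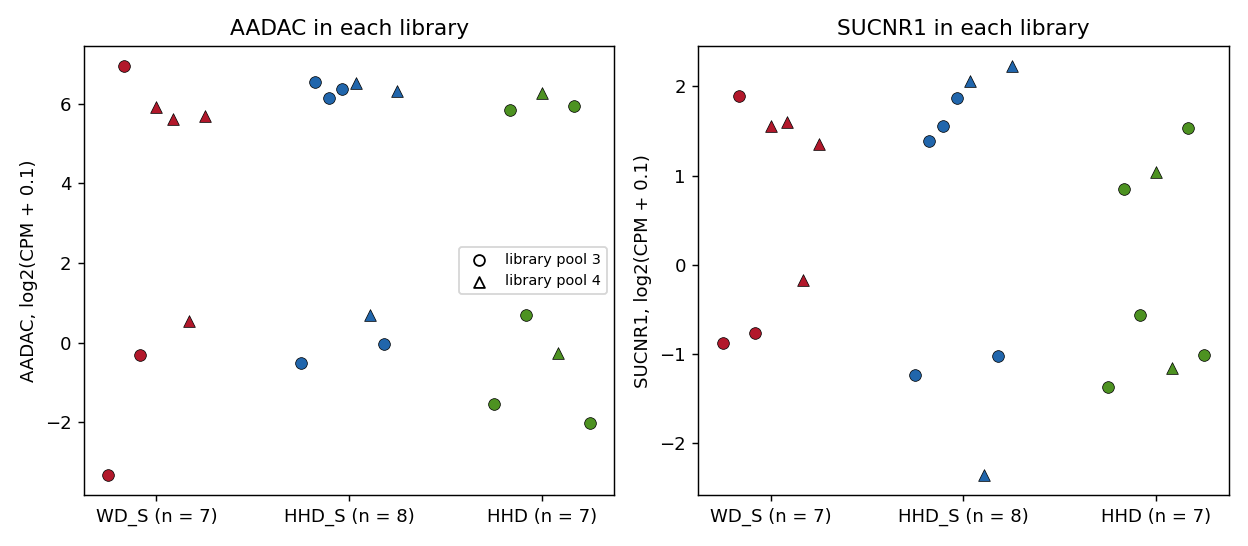
Levels of AADAC (left) and SUCNR1 (right) in each library as log2(CPM + 0.1), by diet group, with circles for library pool 3 and triangles for pool 4. AADAC falls into 12 libraries of at least 49.2 CPM and 10 of at most 1.52 CPM, with both kinds in each group, and the same 12 libraries are the upper ones for SUCNR1.

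The split was also present in both library pools. In pool 3, 6 of 13 libraries were in the high range (57.2 to 122 CPM) and 7 in the low range. In pool 4, 6 of 9 were in the high range (49.2 to 91.9 CPM) and 3 in the low range. The reads of the low libraries made up 0.803% of all AADAC reads in pool 3 and 0.907% in pool 4. Reads of KDM5D, a Y-linked histone demethylase, did not divide the libraries in the same way. KDM5D stood at 9.78 CPM or more in 10 libraries, 4 in the high and 6 in the low range of AADAC. It had 0 CPM in 12 libraries, 8 in the high and 4 in the low range.

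A gap of this size was rare among the genes tested. The largest step between neighbouring libraries, with at least 5 libraries on each side, was 4.93 on the log2 scale for AADAC, against a median of 0.12 over all 13626 genes. A step at least as large was found for 12 genes in all, AADAC included. Of these, 9 have no symbol and 2 are Y-linked (KDM5D and EIF1AY), so AADAC was the single remaining gene with a name. Its coefficient of variation over the 22 libraries was 98.9%, the 55th highest of the 11773 genes whose mean log2 CPM reached 1, where the median was 19.0%. These values describe what AADAC was chosen for.

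SUCNR1, the G protein-coupled receptor for succinate, divided the pigs in the same way. It was named after its values were seen, as the gene whose pattern over the 22 libraries was most like that of AADAC. In the 12 libraries with AADAC, SUCNR1 stood between 1.70 and 4.57 CPM (36 to 98 reads). In the 10 libraries almost without AADAC it stood between 0.0950 and 0.786 CPM (2 to 15 reads). The ranges did not overlap, and their nearest members were 2.17-fold apart. Of 13625 other genes tested, SUCNR1 was the only gene (0.00734%) whose values did not overlap between these libraries. Its Spearman rho with AADAC was 0.82 over 22 libraries, the highest of all other tested genes and the only value of at least 0.8, given as a measure of likeness with no test because it was picked as the highest.

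**Figure D2:**
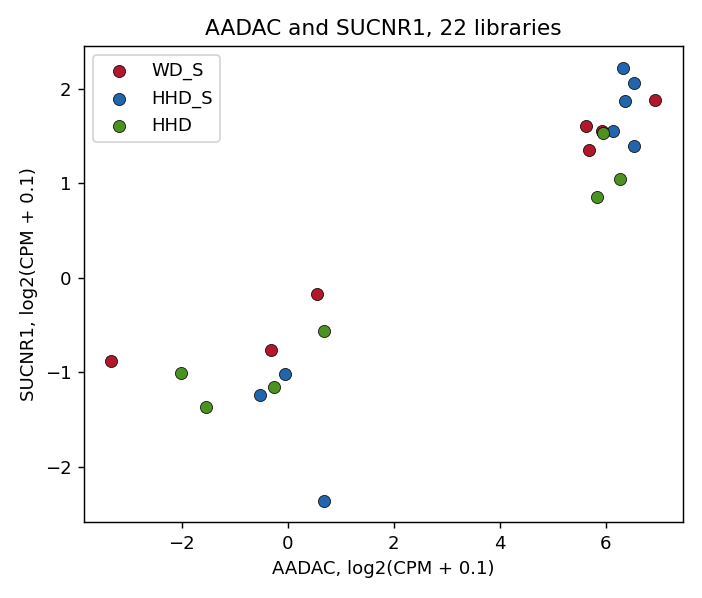
Level of SUCNR1 against that of AADAC in the 22 libraries, both as log2(CPM + 0.1), coloured by diet group. The libraries form a lower left cluster of 10 and an upper right cluster of 12, each holding all 3 groups.

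Because the libraries fall into separate clusters, correlations with AADAC were computed within each cluster only. For SUCNR1 they were not tested, since the gene was picked by its likeness to AADAC in these libraries. Among the 12 libraries with AADAC, its log2 CPM had r = 0.46 and rho = 0.46 with SUCNR1. Without the 2 libraries farthest from the median of AADAC, r was 0.49. Among the 10 libraries almost without AADAC, r was -0.039 and rho 0.055 and r was 0.12 without the 2 farthest.

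RefSeq places SUCNR1 at 92116810 to 92130683 of chromosome 13 in Sscrofa11.1. In the same annotation AADACL2, a relative of AADAC, starts at -165 kb from the start of SUCNR1. Between AADACL2 and SUCNR1 the annotation holds 1 protein-coding gene without a symbol and 2 pseudogenes, and no entry under the symbol AADAC, so a position of the AADAC row is not given here. AADACL2 itself had 0 reads in every library. The nearest tested gene on the other side, the splicing regulator MBNL1, starts 375 kb after the start of SUCNR1 and had a rho of 0.07 with AADAC. Of the other genes that reach into 2000 kb on either side of SUCNR1, 12 were tested, MBNL1 included. Their rho with AADAC ran from -0.48 (TSC22D2) to 0.24 (the purine receptor P2RY1), and their largest step between neighbouring libraries was at most 0.18 on the log2 scale, against 1.03 for SUCNR1.

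**Figure D3:**
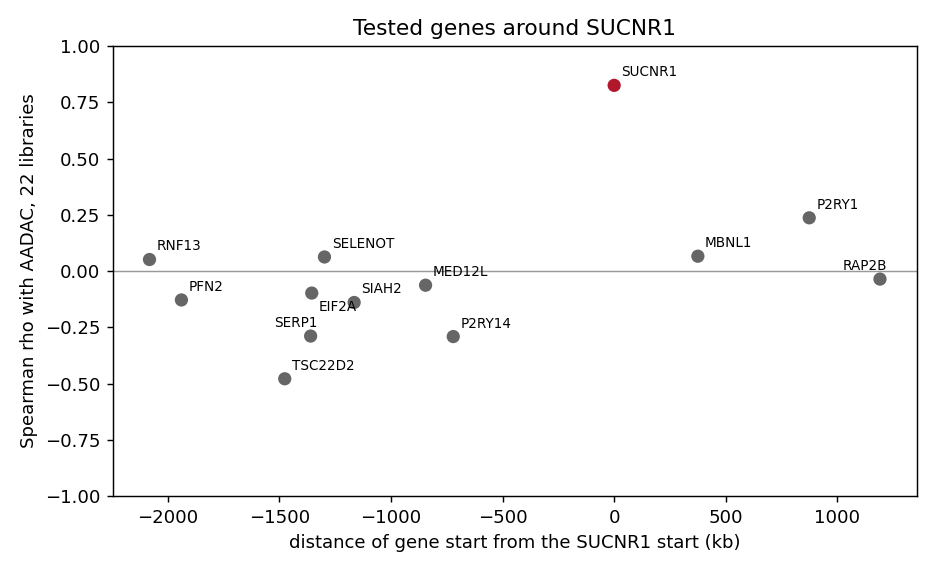
Spearman rho with AADAC over 22 libraries for the tested genes that reach into 2000 kb on either side of SUCNR1, against the distance of the gene start from the SUCNR1 start in kb. SUCNR1 stands at 0.82 and the 12 other genes lie between -0.48 and 0.24.

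Among named genes of moderate or high level (mean log2 CPM 1 or more), those most like AADAC were CRHBP (which binds corticotropin-releasing hormone), PIK3R1 (a regulatory subunit of phosphoinositide 3-kinase), SMAD7 (an inhibitor of TGF-beta signalling), FAM151B and SNX4 (a sorting nexin). Their rho over 22 libraries was between 0.58 (SNX4) and 0.63 (CRHBP). None of them was divided as AADAC was. PIK3R1, for example, stood between 53.1 and 74.0 CPM in the 12 libraries with AADAC and between 46.5 and 57.8 CPM in the other 10, and these ranges overlap.

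CES3 was abundant in every pig and had no such gap. It stood at a lowest, median and highest value of 239, 333 and 443 CPM in WD_S, of 169, 290 and 451 CPM in HHD_S, and of 209, 274 and 360 CPM in HHD. The highest library was HHD_S 2 and the lowest HHD_S 8, 2.67-fold apart, and the groups overlapped over most of their range. Its mean of 298 CPM was above that of 96.6% of the genes tested. The coefficient of variation of CES3 was 24.9%, above that of 71.0% of the same 11773 genes, so its spread was nearer the middle of the genes than the 98.9% of AADAC. RefSeq places CES3 at 27627712 to 27637827 of chromosome 6 in Sscrofa11.1. Reads were counted only where unique, so reads shared with near-identical carboxylesterase copies would be absent.

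CES3 did not follow the division of AADAC. It stood between 169 and 451 CPM in the 12 libraries with AADAC and between 209 and 347 CPM in the other 10. Within the 12, AADAC and CES3 had r = 0.34 and rho = 0.41 (permutation p = 0.285 and 0.193, adjusted p = 0.355 and 0.312 over 2 relations), with r = -0.0090 without the 2 farthest libraries. Within the 10, r was -0.33 and rho -0.36 (permutation p = 0.355 and 0.312, with the same values after adjustment), and r was -0.69 without the 2 farthest.

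CES3 varied with markers of enterocytes, the absorptive cells of the villus. The enterocyte score is the mean log2 CPM, centred per gene, of the 13 of 14 listed markers that were tested, among them VIL1, FABP2, SI and DPP4. Over 22 libraries CES3 had r = 0.74 with it (permutation p = 9e-05, adjusted p = 0.00324) and rho = 0.78 (permutation p = 5e-05, adjusted p = 0.0018), adjusted over 36 relations. Without the 2 libraries with scores farthest from the median r was 0.71. Within pool 3 alone r was 0.68 (n = 13, permutation adjusted p = 0.159) and within pool 4 alone 0.89 (n = 9, exact permutation adjusted p = 0.0612), with no call in either. CES3 was also lower where the TMM factor of a library was higher (r = -0.58 and rho = -0.60 over 22 libraries, with r = -0.55 without the 2 farthest). Its CPM are divided by this factor, so part of this relation is built in and no p-value is given. With scaling by total counts instead, CES3 had r = 0.64 with the enterocyte score (permutation adjusted p = 0.0326).

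**Figure D4:**
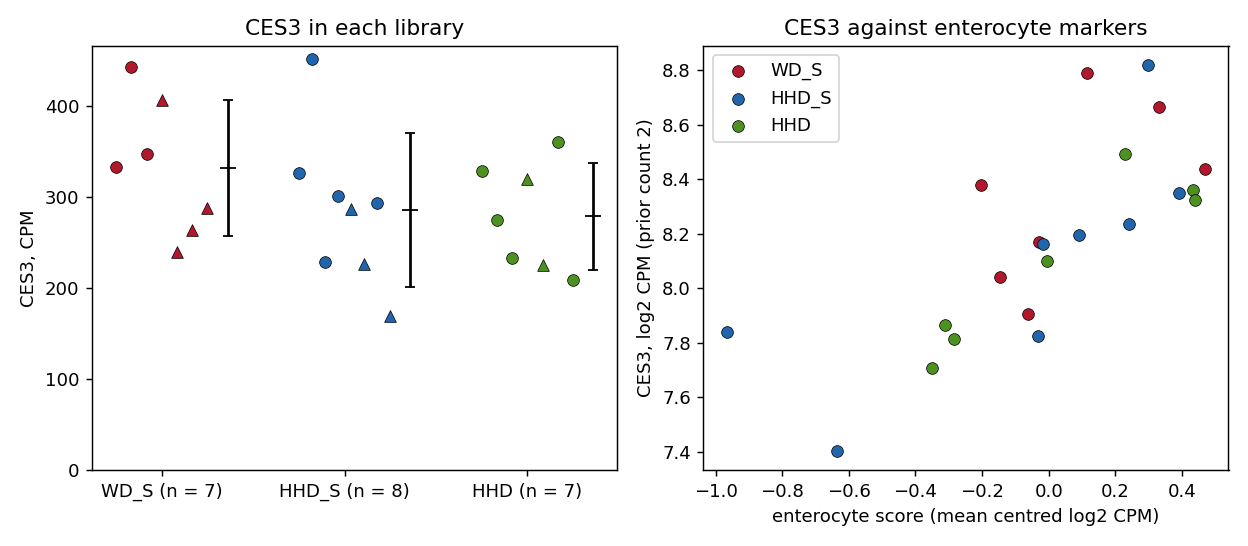
CES3 in CPM in each library by diet group (left; circles pool 3, triangles pool 4, bars mean ± SD) and CES3 as log2 CPM against the enterocyte score (right). Group means are 331, 285 and 278 CPM in WD_S, HHD_S and HHD, and CES3 is higher where the score is higher (r = 0.74).

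The other 11 scores were not related to CES3 past the threshold. The nearest were goblet cells (r = 0.46, permutation p = 0.0305), smooth muscle (r = 0.43, permutation p = 0.0442) and enteroendocrine cells (r = 0.43, permutation p = 0.0461), each with an adjusted p of 0.332. Without the 2 libraries with scores farthest from the median, r was 0.37 for goblet cells, 0.08 for smooth muscle and 0.25 for enteroendocrine cells. Crypt and division markers had r = -0.01, those of T and natural killer cells r = -0.01 and those of the proximal small intestine r = 0.09. For AADAC, 24 relations were computed within the 2 clusters. In the 12 libraries with AADAC none passed the threshold, and the enterocyte score was among those that did not. In the 10 libraries almost without AADAC, its few reads were lower where ileal markers were higher (r = -0.89, permutation p = 0.00149, adjusted p = 0.0268). By rank the same relation did not pass (rho = -0.68, adjusted p = 0.560), and without the 2 farthest libraries r was -0.56. WD_S 1, with 0 reads of AADAC, had the highest ileal score of the 22 libraries, and without it r was -0.75 and no longer passed (exact permutation p = 0.0193, adjusted p = 0.332). The relation also did not pass without WD_S 3, HHD 1, HHD 3 or HHD 7 (exact permutation adjusted p = 0.0510, 0.119, 0.0624 and 0.171).

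The genes most like CES3 over the 22 libraries were PEPD (prolidase, which splits dipeptides that end in proline or hydroxyproline; rho 0.89), GRINA (0.88), the glycolytic enzymes PGK1 (0.85) and ENO1 (0.84), and SEC14L2 (a lipid-binding protein; 0.83). PEPD stood between 183 and 720 CPM. These are likeness measures over 22 libraries with no test. A rho of at least 0.8 was reached by 18 genes with CES3 and by 1 gene with AADAC. These counts cannot be set against each other, since the libraries form separate clusters for AADAC and not for CES3.

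Among pigs on atorvastatin, WD_S was set against HHD_S to ask whether the diet moved either gene. AADAC averaged 40.7 ± 44.7 CPM over the 7 WD_S pigs and 52.4 ± 43.2 CPM over the 8 HHD_S pigs (mean ± SD, as throughout), with a log2 fold change of -0.41 (SE 1.36, edgeR adjusted p = 0.9995). Each group held pigs of the high and of the low range, and the 95% interval of the log2 fold change ran from -3.27 to 2.45. Without WD_S 2, the library with the most AADAC, the log2 fold change was -1.83. CES3 averaged 331 ± 74.4 CPM in WD_S and 285 ± 84.2 CPM in HHD_S, a log2 fold change of 0.28 (SE 0.17, interval -0.07 to 0.63, adjusted p = 0.9995). edgeR called 0 of the 2 genes, DESeq2 and limma also called 0, and 0 had an unadjusted p under 0.05 by any of these tools. Of all genes tested, 0% were called in this comparison by edgeR, with 398 at an unadjusted p under 0.05. The log2 fold change of AADAC was -0.25 within pool 3 and -0.51 within pool 4, and that of CES3 was 0.24 and 0.40.

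The drug was addressed by HHD_S against HHD, both on the heart healthy pattern. AADAC averaged 52.4 ± 43.2 CPM over the 8 HHD_S pigs and 28.4 ± 35.1 CPM over the 7 HHD pigs, with a log2 fold change of 0.88 (SE 1.36, interval -1.99 to 3.74, edgeR adjusted p = 0.9993). The high range of AADAC held 5 of 8 HHD_S pigs and 3 of 7 HHD pigs. With Y-linked expression as a covariate the log2 fold change of AADAC was 1.69, not called. CES3 averaged 285 ± 84.2 CPM in HHD_S and 278 ± 58.7 CPM in HHD, a log2 fold change of 0.04 (SE 0.16, interval -0.30 to 0.39, adjusted p = 0.9993). Neither gene was called by edgeR, DESeq2 or limma, and 0 had an unadjusted p under 0.05. Of all genes, 0% were called by edgeR, with 247 at an unadjusted p under 0.05. Within pool 3 the log2 fold changes were 1.00 for AADAC and 0.17 for CES3, and within pool 4 they were 0.57 and -0.26. The value of CES3 also turned negative without HHD_S 2 (-0.081), HHD 3 (-0.0096) or HHD 7 (-0.029).

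In the comparison of WD_S with HHD diet and drug differed at once. It shares its libraries with the other comparisons. AADAC averaged 40.7 ± 44.7 CPM over the 7 WD_S pigs and 28.4 ± 35.1 CPM over the 7 HHD pigs, with a log2 fold change of 0.47 (SE 1.41, interval -2.49 to 3.43, edgeR adjusted p = 0.9997). Without WD_S 2 it was -0.97, and with Y-linked expression as a covariate it was 1.20, not called. CES3 averaged 331 ± 74.4 CPM in WD_S and 278 ± 58.7 CPM in HHD, a log2 fold change of 0.32 (SE 0.17, interval -0.04 to 0.69, adjusted p = 0.9997). With the enterocyte score as a covariate the value of CES3 was 0.30 (SE 0.12, edgeR unadjusted p = 0.0198, adjusted p = 0.9998), not called. With that covariate CES3 had 0.19 for WD_S against HHD_S and 0.11 for HHD_S against HHD, also not called. Without these covariates edgeR called 0 of the 2 genes, beside 0.00734% of all genes. Of all genes, 465 had an unadjusted p under 0.05 in that fit, as had 0 of the 2. DESeq2 and limma called 0, and by limma CES3 had an unadjusted p of 0.0263 (adjusted p = 0.476). Shares over all genes were counted for edgeR only, here and in the other comparisons, so the limma value has no such share beside it. Within pool 3 the log2 fold changes were 0.75 for AADAC and 0.41 for CES3, and within pool 4 they were 0.06 and 0.14.

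**Figure D5:**
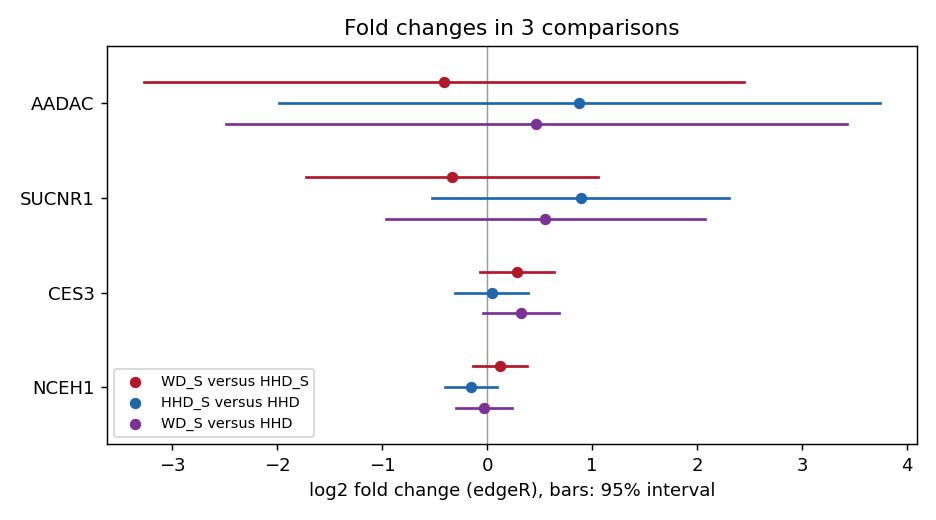
Log2 fold changes of AADAC, SUCNR1, CES3 and NCEH1 in the 3 comparisons, with bars for the 95% interval from 18 residual degrees of freedom. The intervals of AADAC span more than 5 log2 units and those of CES3 less than 1, and every interval includes 0.

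SUCNR1 was not called in any comparison either. It averaged 1.94 ± 1.32 CPM in WD_S, 2.30 ± 1.80 CPM in HHD_S and 1.15 ± 0.997 CPM in HHD (SD, n = 7, 8 and 7). Its log2 fold changes were -0.34 (SE 0.66) for WD_S against HHD_S, 0.89 (SE 0.67) for HHD_S against HHD and 0.55 (SE 0.72) for WD_S against HHD, with edgeR adjusted p of 0.9993 to 0.9997.

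Of the closest relatives, NCEH1 alone had enough reads to test. NCEH1, which hydrolyses cholesteryl esters in the macrophages of mice and has the same fold as AADAC, averaged 29.1 ± 4.68 CPM in WD_S, 27.1 ± 4.29 CPM in HHD_S and 30.3 ± 4.87 CPM in HHD (SD, n = 7, 8 and 7), and lay between 22.3 and 37.5 CPM in all libraries. Its log2 fold changes were 0.12, -0.15 and -0.03 for WD_S against HHD_S, HHD_S against HHD and WD_S against HHD, none called. CES5A had 3 reads and AADACL4 had 1 read over the 22 libraries, and AADACL2 and AADACL3 had 0. CES4A had no row under that name and was not analysed here.

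Other esterases and hydrolases of the mucosa were listed beside them, 22 of 24 being tested. Of these, 0 were called by edgeR in either direction in any comparison (0, 2 and 1 with an unadjusted p under 0.05 for WD_S against HHD_S, HHD_S against HHD and WD_S against HHD). Of all 13626 genes, 2.92%, 1.81% and 3.41% had an unadjusted p under 0.05 in these comparisons. Their median log2 fold changes were -0.02, 0.04 and 0.04, where those of all genes were -0.01, 0.009 and -0.004. The most abundant were the epoxide hydrolases EPHX1 (503 ± 122 CPM) and EPHX2 (241 ± 70.1 CPM) and esterase D, ESD (186 ± 28.5 CPM; SD, n = 22 each). The smallest p belonged to PNPLA2, the first lipase of fat breakdown, at 68.4 ± 18.8 CPM in WD_S and 44.3 ± 9.57 CPM in HHD (log2 fold change 0.59, SE 0.23, adjusted p = 0.9997). ABHD5, the activator of PNPLA2, stood at 39.5 ± 16.1 CPM in HHD_S and 62.3 ± 36.7 CPM in HHD (log2 fold change -0.66, SE 0.30, adjusted p = 0.9993). PNPLA2 and ABHD5 were the 2 genes with an unadjusted p under 0.05 by edgeR for HHD_S against HHD. RBBP9, a serine hydrolase, had a log2 fold change of -0.19 (SE 0.11) for WD_S against HHD_S.

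Transcription factors known to set intestinal and hepatic gene programmes were all measured, 16 of 16 being tested. Of these, 0 were called by edgeR (1, 0 and 1 with an unadjusted p under 0.05, beside 2.92%, 1.81% and 3.41% of all genes), and their median log2 fold changes were 0.07, 0.03 and 0.06 for WD_S against HHD_S, HHD_S against HHD and WD_S against HHD. CREB3L3 (783 ± 145 CPM), HNF4A (537 ± 64.2 CPM) and HNF4G (524 ± 136 CPM; SD, n = 22 each) were the most abundant. CDX2, a factor of intestinal identity, had the smallest p, at 272 ± 70.2 CPM in WD_S and 204 ± 29.7 CPM in HHD (log2 fold change 0.46, SE 0.14, adjusted p = 0.9997). CDX2 was also the 1 factor with an unadjusted p under 0.05 for WD_S against HHD_S. PPARG, a nuclear receptor of lipid metabolism, had a log2 fold change of 0.27 (SE 0.16, edgeR unadjusted p = 0.111) for WD_S against HHD_S.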

How the data were processed

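Jejunal RNA was made into TruSeq libraries and read from 1 end on a NextSeq instrument, and the authors processed the reads with the CLC Bio workbench and the Sscrofa11.1 annotation, per the labels' protocols. Each deposited file gives, per the file headers, a count for every gene of reads placed uniquely in its exons. The software version, the mapping settings and the use of strand in counting are not stated in the labels. A read with several equal placements is missing from these values, so genes with near-identical copies are uncertain.

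Groups came from the diet labels, with replicates numbered in accession order, and pools from the file names. Nothing is known of litters, so the tests treat the pigs as independent, which could not be checked. The members and lists were chosen with earlier results of these data known. No 2 libraries agreed within sampling noise (smallest reduced chi-square of 231 pairs 25.2).

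Counts were filtered with filterByExpr (minimum count 10), TMM-scaled and fitted with edgeR 4.0.16 (R 4.3.3, quasi-likelihood, robust) to all 3 groups with pool as a term. This left 13626 genes and 18 residual degrees of freedom. P values were Benjamini-Hochberg adjusted over all genes. DESeq2 1.42.0 and limma 3.58.1 were alternatives, and the fit was tested on simulated data. The simulated counts had no clusters of libraries within a group, so this does not cover a gene divided as AADAC was. Log2 CPM used a prior count of 2. Correlations were tested by two-sided permutation (100000 resamples, exact under 10 libraries). AADAC libraries were divided at 10 CPM, inside the empty interval, after the values were seen. Because of that division, planned correlations of AADAC over all libraries were replaced by those within each part. Scores needed 3 tested markers, which left out hepatocyte and pancreatic acinar lists. Named genes were the members, their relatives, the 5 genes with the highest rho per member, and from each other list the 3 with the smallest p and the 3 most abundant. Of these, 1 gene is not reported here. SUCNR1 and its neighbours were added after their values were seen.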

Additional observations from a re-analysis of the deposited data

How the results depend on the processing

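Of 204 fold changes recomputed for AADAC and CES3 (34 alternatives for each of 6), 0 passed the threshold (smallest adjusted p 0.476) and 6 turned sign. For WD_S against HHD, AADAC turned to -0.23 by limma with quality weights, and its range without 1 library was -0.97 to 1.14, the negative value being that without WD_S 2. For HHD_S against HHD, CES3 turned to -0.26 in library pool 4 alone, and ran from -0.081 to 0.14 without 1 library, negative without HHD 3, HHD 7 or HHD_S 2. Without 1 library AADAC ran from 0.64 to 1.47 for HHD_S against HHD and from -1.83 to -0.15 for WD_S against HHD_S (-1.83 without WD_S 2), and CES3 from 0.24 to 0.44 for WD_S against HHD and from 0.20 to 0.39 for WD_S against HHD_S. The coefficient of variation of AADAC was 118% in pool 3 alone, 78.8% in pool 4 alone and 94.2% to 104% without 1 library, and that of CES3 23.0% to 25.5%. The correlation of CES3 with the enterocyte score was 0.68 in pool 3 and 0.89 in pool 4, neither passing, with 0 scores passing in each, and 0.69 to 0.78 without 1 library. The correlation of AADAC with CES3 in the 12 libraries with AADAC turned to -0.16 in pool 4 and to -0.0090 without the 2 farthest libraries. That with SUCNR1 in the other 10 turned to 0.30 in pool 3, 0.27 when centred within diet group and 0.12 without the 2 farthest. Of the relations of AADAC with marker scores, 0 passed without the 2 farthest libraries, and 0 in pool 4, where only the high libraries could be used, since 3 low libraries are too few for the ileal relation. Y-linked expression as a covariate gave the highest AADAC values, 1.69 for HHD_S against HHD and 1.20 for WD_S against HHD. Causes of these shifts were not tested. No paired analysis was possible because the labels give the pigs no replicate numbers shared between groups. Depth limits SUCNR1, with 2 to 98 reads per library, and the low AADAC values.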
